A study of Mus musculus with 4 samples.

Results

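The protocadherin genes of the autosomes were examined in a population-based replication timing profile of mouse embryonic stem cells. Members were all protein-coding genes of GENCODE vM21 on chromosomes 1 to 19 whose symbol starts with Pcdh, which gave 67 of 20807 genes. Of these, 57 lie in the alpha, beta and gamma clusters of chromosome 18 (14, 22 and 21 genes), and 10 are dispersed genes named Pcdh followed by digits. Replication timing (RT) was measured by Repli-seq in diploid F121-9 cells, a hybrid line between the Castaneus (cas) and 129 strains grown in N2B27 medium with LIF and the inhibitors of 2i, with early and late S fractions each sequenced as 2 libraries. The assay marks newly made DNA with a pulse of the thymidine analog BrdU. Cells early and late in S-phase are then separated by sorting, and the marked DNA is pulled down with an antibody and sequenced. RT is the log2 of early over late reads scaled to library size (RPM) in a 50 kb bin of mm10, so RT above 0 means a higher early than late RPM. The deposited profile holds 1 value per bin, named only by cell line and taken here to combine the libraries. It also combines cells and homologs, and with 1 value no replicate error, read depth or test can be given. A bin with RT near 0 cannot be told apart from a mix of cells or homologs that replicate early and late. No RNA was measured in these libraries, and the labeled cell type was not checked against marker genes. Noise between bins was estimated from flat segments, by how far a bin departed from the mean of its neighbors. Scaled to a single bin the noise SD was 0.16 log2, which leaves out differences between cultures.

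Protocadherins are cadherin-superfamily adhesion proteins with a single transmembrane segment, best known in the nervous system. In the clusters each variable exon has a promoter of its own, and single neurons express different subsets of isoforms, which gives each neuron a surface identity used in self-avoidance and synapse formation. Promoter choice there involves DNA methylation and looping of promoters to distal enhancers by CTCF and cohesin. The alpha and gamma isoforms are spliced to constant exons at the end of their cluster, whereas the beta genes are single exons that each encode a whole protein. The dispersed genes lie outside the clusters and are divided by their cytoplasmic motifs into delta1 and delta2 groups and some others.

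At gene starts, the clustered genes fell on either side of RT 0 and the dispersed genes were mostly late. RT was above 0 at 33 of 57 clustered genes (57.9%) and at 3 of 10 dispersed genes, against 74.1% of all protein-coding genes with a value. The median was 0.46 in the clusters, with a range from -2.40 to 3.02. Among the dispersed genes it was -3.04, from -4.03 to 2.74. All protein-coding genes had a median of 2.35 and quartiles of -0.13 and 3.33. The medians of the classes differed by 3.50 log2, but the clustered starts occupied only 15 distinct bins of 1 locus and are not independent of each other. With each bin counted once the clustered median was -0.21, and with the mean over each gene body it was -0.76, so the sign of this median depends on how genes that share bins are counted. The dispersed median was -3.53 over gene bodies. By body mean 24 of 57 clustered and 3 of 10 dispersed genes were above 0, against 73.5% of all genes.

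**Figure D1:**
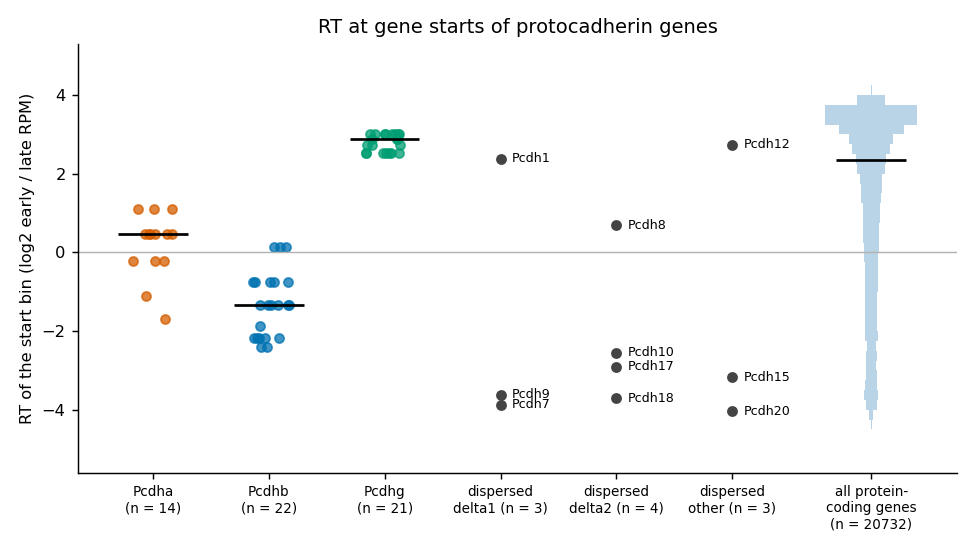
RT of the 50 kb bin that holds each gene start (log2 early over late RPM), with a point per gene, offset sideways in the clusters for visibility, and black lines at the medians. The shape on the right is the histogram of all 20732 protein-coding genes with a value, with its median of 2.35. The 21 Pcdhg points sit between 2.53 and 3.02, above all Pcdha and Pcdhb points, and 7 of 10 dispersed genes lie below -2.5.

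The 3 clusters differed from each other in RT. Pcdhg starts were all early, with a median of 2.87 and a range from 2.53 to 3.02. Pcdha starts spanned early and late RT, with a median of 0.46, a range from -1.69 to 1.12 and 9 of 14 above 0. The sign of this median is not stable, since it was -0.21 with each bin counted once, and also with positions read as bin ends, where 3 of 14 were above 0. Pcdhb starts were mostly late, with a median of -1.34, a range from -2.40 to 0.14 and 3 of 22 above 0. With positions read as bin ends the Pcdhb median was -0.76 and 8 of 22 were above 0. The lowest Pcdhg start therefore lay above the highest start of the other clusters, without overlap. The starts of the clusters occupied only 5 (alpha), 6 (beta) and 4 (gamma) neighboring bins of the same locus. For comparison, 74.1% of all protein-coding genes with a value had RT above 0. Among all gene starts the cluster medians stood at the 29.6 (alpha), 16.8 (beta) and 59.9 (gamma) percentile.

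The clusters span 911.69 kb of chromosome 18 (mm10, 36930184 to 37841873), which is 19 bins, 9 with RT above 0 and 10 below. Their mean RT of -0.07 describes no part of the locus, since RT formed a single valley. RT fell without interruption from 3.30 in the bin that starts at 36750001 to -2.40 in the bin from 37250001 to 37300000. The fall took 10 steps over 500 kb, a slope of -11.4 log2 per Mb. RT then rose in 9 steps over 450 kb to 3.02, a slope of 12.1 log2 per Mb. Set against the absolute slopes over 5 bins, whose median was 3.43, these values stand at the 92.5 and 93.9 percentile. The measures differ, since these slopes run between the end bins of each side. Over 5 bins the slope reached -14.3 log2 per Mb on the fall and 16.7 on the rise. The alpha cluster lies on the falling side, the beta cluster covers the bottom and the lower part of the rise (2.55 of 5.42 log2), and the gamma cluster lies at the top of the rise.

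**Figure D2:**
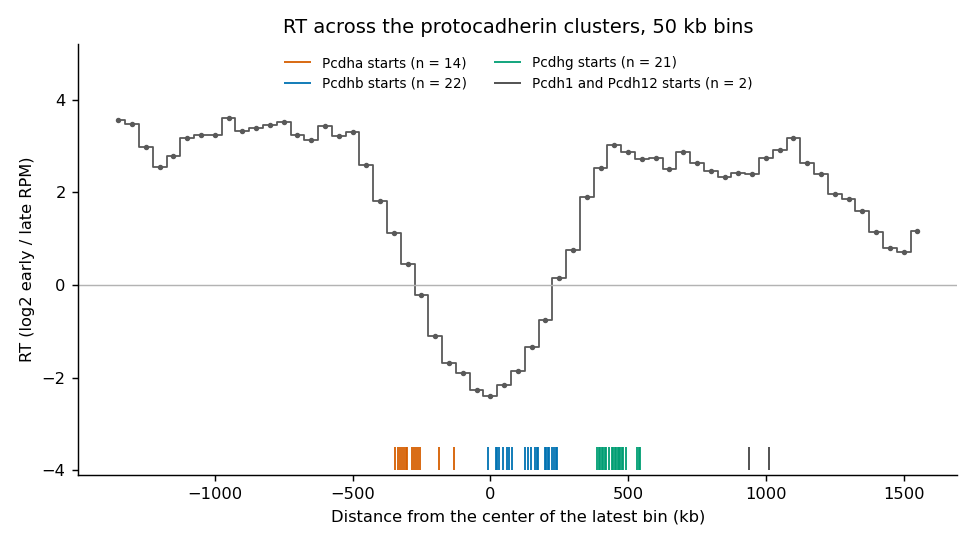
RT of each 50 kb bin (log2 early over late RPM) from 1 Mb before to 1 Mb after the clusters, against the distance in kb from the center of the latest bin, with gene starts as colored ticks. The Pcdha ticks stand under the falling side, the Pcdhb ticks run from the lowest bin (-2.40) up to the bin at 0.14, and the Pcdhg ticks stand under bins of 2.53 to 3.02.

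The alpha cluster (36930184 to 37187661) changed by -3.03 log2 from its first to its last bin. Pcdha1, the first gene, and its neighbors Pcdha2 and Pcdha3 shared a bin at 1.12, which is 2.17-fold more early than late RPM. Pcdha4 to Pcdha9 were at 0.46. Pcdha12 and the 2 gene models that both carry the symbol Pcdha11 were at -0.21, within 2 noise SD of 0. Pcdhac1 was at -1.10. Pcdhac2, the last gene, was at -1.69, which is 3.22-fold more late than early RPM. Thus RT declined along the order of the genes, and 4 of the 5 steps between neighboring bins were larger than 0.44 log2, which is 2 noise SD of such a step.

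Because each alpha isoform runs to the same constant exons, its gene body reaches into the later bins. All 14 Pcdha gene bodies had a mean RT below 0, from -1.88 for Pcdhac2 to -0.69 for Pcdha1, with a median of -1.05. The 9 genes with early starts therefore had late body means. These bodies are nested, so their means share most of their bins.

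The beta cluster (37264938 to 37524479) rose by 2.55 log2 from its first to its last bin. Pcdhb1, the first gene, and Pcdhb2 lay in the lowest bin of the locus at -2.40, which is 5.29-fold more late than early RPM. Pcdhb3 to Pcdhb7 were at -2.17, Pcdhb8 at -1.86 and Pcdhb9 to Pcdhb14 at -1.34. Pcdhb15 to Pcdhb19 were at -0.76. Pcdhb20 to Pcdhb22, the last gene, were at 0.14, less than the noise SD from 0, so these 3 early calls are not distinguished from 0. Of the 5 steps 3 exceeded 2 noise SD of a step. The genes are 2.59 to 8.70 kb long, so the body and the start bin gave the same median and the same count of early genes.

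The gamma cluster (37661793 to 37841873) was nearly level. Pcdhga1, the first gene, shared its bin at 2.53 with the next 6 genes (Pcdhga2, Pcdhga3, Pcdhgb1, Pcdhga4, Pcdhgb2 and Pcdhga5). The following bin, from Pcdhga6 to Pcdhga10, was the highest at 3.02, which is 8.11-fold more early than late RPM. Pcdhgb7, Pcdhga11 and Pcdhga12 were at 2.87, and Pcdhgc3, Pcdhgc4 and Pcdhgc5, the last genes, were at 2.73. Only the first of the 3 steps (0.49 log2) was above 2 noise SD of a step. Gene body means ran from 2.73 to 2.87.

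The C-type isoforms, whose promoters are used more constitutively in neurons than those of the alternate isoforms, did not share an RT. Pcdhac1 and Pcdhac2 were late (-1.10 and -1.69) and Pcdhgc3 to Pcdhgc5 were early (2.73 each). Each followed the place of its cluster in the valley.

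RT crossed 0 at 2 places in the locus, near 37009082 and near 37517143, which are 508 kb apart. The first lies in the alpha cluster, in the bin of the models named Pcdha11 and Pcdha12, and the second lies in the beta cluster, in the bin of Pcdhb20 to Pcdhb22. Split at 0, the clusters thus occupied 3 domains of one sign of RT. Pcdha1 to Pcdha9 lay at the end of an early domain of 3450 kb with a mean of 2.99. The other 5 Pcdha genes and Pcdhb1 to Pcdhb19 lay in a late domain of 500 kb with a mean of -1.57. Pcdhb20 to Pcdhb22 and all 21 Pcdhg genes lay in an early domain of 1900 kb with a mean of 1.81. The gap between alpha and beta (77.3 kb) was entirely late, and RT rose from 0.14 to 2.53 across the gap between beta and gamma (137 kb).

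Genes around and inside the clusters followed the same profile. Zmat2, 131 kb before Pcdha1, had an RT of 3.30, and Diaph1, a formin that nucleates actin filaments, 1.73 kb after the gamma cluster, had 2.51. Slc25a2, a mitochondrial ornithine carrier, and Taf7, a subunit of TFIID, lie between the beta and gamma genes in a bin at 1.89. All bins within 1 Mb on either side were early. The 20 bins before the clusters had a median of 3.25 and a range from 1.81 to 3.61, with the lowest directly before the clusters, and the 20 bins after them had a median of 2.40 and a range from 0.72 to 3.17.

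The valley was among the deeper ones of its length. Of 883 late domains bounded by early bins the median length was 800 kb. Of the 109 that are 400 to 600 kb long, the lowest RT had a median of -1.82 and quartiles of -2.25 and -1.42. The valley of the clusters reached -2.40, and 17 of the 109 (15.6%) went lower. Among the 31 of these with bins of RT 2 or more within 500 kb on both sides, 4 went lower. The lowest bin stood at the 34.1 percentile of all bins, of which 42.1% had RT above 0. Among gene starts, which are mostly early, its value stood at the 10.2 percentile.

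**Figure D3:**
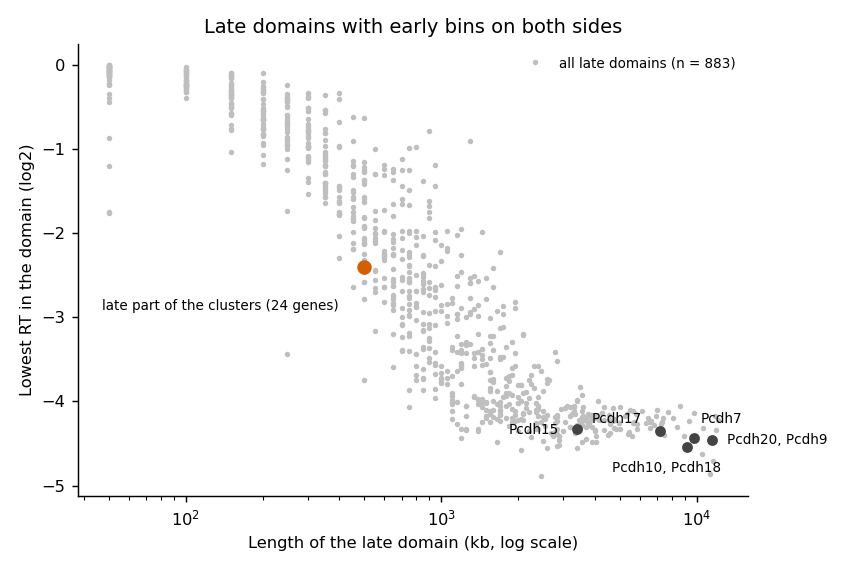
Length (kb, log scale) and lowest RT (log2) of each of the 883 late domains with early bins on both sides, as gray points. The orange point is the late domain of the clusters (500 kb, lowest RT -2.40), which lies in the lower part of the points of its length, and the dark points are the 5 late domains that hold dispersed genes, 3400 to 11500 kb long.

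Base composition, which the choice of members did not use, was compared along the bins. GC content was lower in the 10 late bins of the clusters (median 40.4%, range 38.5 to 40.97%) than in the 9 early ones (median 42.5%, range 39.0 to 48.7%), and the ranges overlapped. Across all bins of chromosomes 1 to 19, late bins had a median GC content of 39.4% and early bins one of 44.7%, and bins within 0.25 log2 of the lowest RT of the locus had 39.9%. Spearman's rho between GC content and RT was 0.69 over the 20 bins of the valley and 0.75 over all bins. Over the 59 bins of the clusters and 1 Mb on either side it was lower, at 0.46. These values are descriptions of neighboring bins that are not independent.

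CpG content was highest where gene starts were dense. In the 11 bins with 3 or more starts of clustered genes, the observed over expected CpG ratio was 0.24 to 0.51, at the 85.5 to 99.99 percentile of all bins. In the other 8 bins it was 0.16 to 0.22, without overlap, at the 38.6 to 74.2 percentile of all bins. The dense bins were not compared with bins elsewhere that hold as many gene starts. The dense bins lay on both sides of RT 0. The highest ratio, 0.51, was in the bin of Pcdha4 to Pcdha9 at RT 0.46, and the bin of Pcdhb3 to Pcdhb7 at RT -2.17 had 0.30, above the median of early bins (0.22) and of late bins (0.16). Repeat-masked bases made up a median of 28.5% of the dense bins and 50.04% of the others, with overlapping ranges (14.8 to 51.3% and 23.4 to 76.8%).

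**Figure D4:**
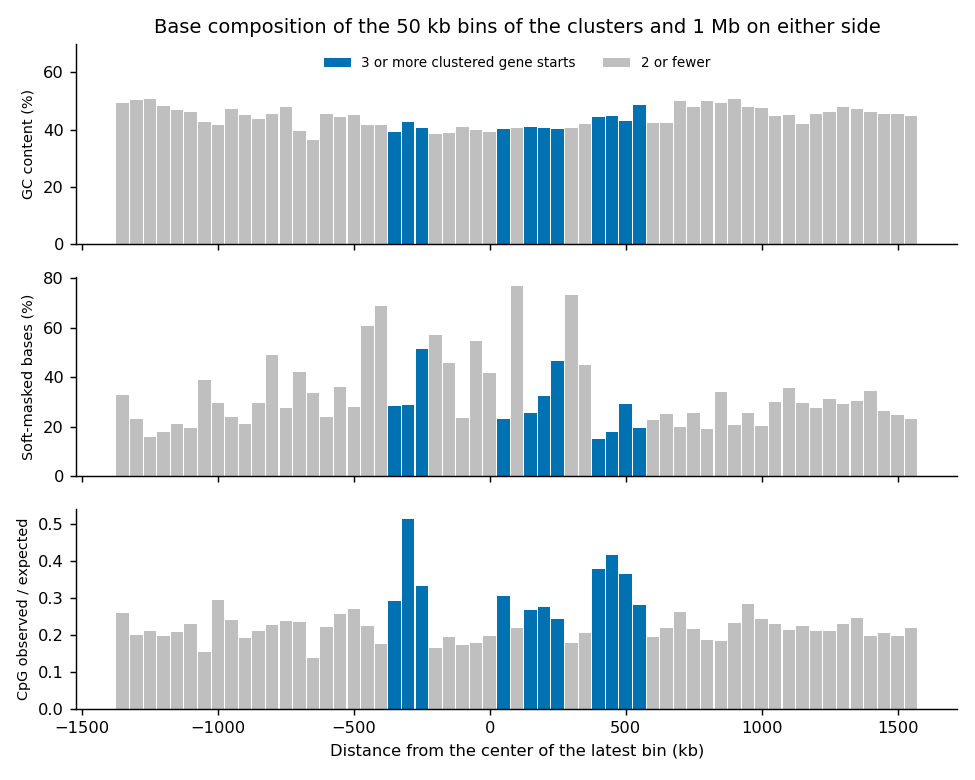
GC content (%), soft-masked repeat bases (%) and observed over expected CpG ratio of the 50 kb bins of the clusters and 1 Mb on either side, against the distance in kb from the center of the latest bin. Blue bars are the 11 bins with 3 or more clustered gene starts, whose CpG ratios (0.24 to 0.51) are above those of the other 8 bins of the clusters.

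Gene density also differed between the classes. The clustered genes had 75 to 92 protein-coding gene starts within 1 Mb, against a median of 31 for all protein-coding genes. The clustered genes themselves are among those counted, so part of this excess comes from the clustering itself. The dispersed genes had 1 to 60, with a median of 1.5, and the 7 late ones had 1 or 2, the gene itself included.

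Of the dispersed genes, Pcdh1 and Pcdh12 were early and share the chromosome of the clusters. Pcdh1, a delta1 protocadherin known in airway epithelium (38185914 to 38212053), starts in a bin at 2.38, with neighbors at 2.40 and 2.74. Pcdh12, a protocadherin of endothelial cells (38267089 to 38284402), starts in a bin at 2.74. They lie 344 kb and 425 kb after the gamma cluster, in the early domain of 1900 kb that also holds the Pcdhg genes. They had 60 and 59 gene starts within 1 Mb, most of which are Pcdhb and Pcdhg starts. Without them, 1 of 8 dispersed genes had RT above 0 and the median was -3.40, a difference from the clustered median of 3.85.

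For the dispersed genes elsewhere, the 250 bases before the gene start were taken from RefSeq (GRCm38.p6), which listed promoters for 8 of the 10. Pcdh1 and Pcdh12, the dispersed genes with the highest RT, were not among them. The genes chosen are the late members with the most CpG once the 50 bases after the start are included (Pcdh17 and Pcdh10), the early start (Pcdh8), and the latest start with the fewest CpG (Pcdh20). They are written 5' to 3' along the gene, with every CG in capitals. Pcdh17 is at chr14:84443313-84443562 (plus strand), Pcdh10 at chr3:45378148-45378397 (plus strand), Pcdh8 at chr14:79771313-79771562 (minus strand) and Pcdh20 at chr14:88471397-88471646 (minus strand).
Pcdh17: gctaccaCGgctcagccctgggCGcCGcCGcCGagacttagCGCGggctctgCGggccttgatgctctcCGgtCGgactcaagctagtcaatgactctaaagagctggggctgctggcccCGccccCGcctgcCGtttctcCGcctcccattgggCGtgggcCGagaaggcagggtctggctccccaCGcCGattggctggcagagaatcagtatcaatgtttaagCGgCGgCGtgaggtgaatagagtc
Pcdh10: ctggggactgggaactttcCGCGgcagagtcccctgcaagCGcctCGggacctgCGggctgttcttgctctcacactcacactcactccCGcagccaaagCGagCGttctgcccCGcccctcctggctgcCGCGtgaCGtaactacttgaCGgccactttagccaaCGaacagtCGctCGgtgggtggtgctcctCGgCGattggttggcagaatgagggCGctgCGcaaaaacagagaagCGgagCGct
Pcdh8: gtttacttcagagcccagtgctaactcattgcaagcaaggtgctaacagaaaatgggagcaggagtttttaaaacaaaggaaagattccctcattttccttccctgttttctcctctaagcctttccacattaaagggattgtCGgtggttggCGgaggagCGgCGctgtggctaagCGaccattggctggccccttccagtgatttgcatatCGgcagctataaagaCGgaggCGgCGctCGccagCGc
Pcdh20: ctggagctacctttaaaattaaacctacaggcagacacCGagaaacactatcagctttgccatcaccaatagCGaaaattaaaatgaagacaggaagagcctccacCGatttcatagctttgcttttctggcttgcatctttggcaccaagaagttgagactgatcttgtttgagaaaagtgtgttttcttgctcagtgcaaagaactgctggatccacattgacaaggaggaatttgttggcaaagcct
These stretches hold 21, 22, 11 and 3 CG, and the same stretch of Pcdh18, not printed, holds 23.

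Over the whole RefSeq window of 250 bases before to 50 after the start, late dispersed genes held from 4 to 26 CpG. None was below the median of promoters with RT below 0. The window held 26 CpG at Pcdh17, 24 at Pcdh10, 23 at Pcdh18, 18 and 19 at the pair of starts listed for Pcdh9, 14 at Pcdh8, 11 at Pcdh7, 8 at Pcdh15 and 4 at Pcdh20. All protein-coding promoters had a median of 14, those with RT above 0 a median of 17 and those with RT below 0 a median of 4. A count of 23 or more, as at Pcdh17, Pcdh10 and Pcdh18, was found in 15.0% of late and 36.2% of early promoters. At Pcdh15 the RefSeq start lies inside the GENCODE gene, in a bin at -3.33. The motif CGCT, known from a conserved element of clustered protocadherin promoters, was searched on both strands, and each match contains a CpG. It was in 9 of 9 windows of dispersed genes and in 71.4% of all 19174 windows. The 9 windows come from 8 genes, and the pair of Pcdh9 windows overlaps almost fully. Of these genes only Pcdh8 had an early start, at RT 0.69, and it did not have the most CpG. Since Pcdh1 and Pcdh12 had no window, early and late dispersed promoters cannot be compared.

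Among the delta1 genes, Pcdh7 and Pcdh9 were late, with start bins at the 1.19 and 2.94 percentile of gene starts. Pcdh7 (chromosome 5, 57717967 to 58133230), a large adhesion protein known from neural and cardiac tissue, had a start bin at -3.87 and a body mean of -3.79. It lies in a late domain of 9750 kb. Pcdh9 (chromosome 14, 93013410 to 93890679) is 877 kb long and lies in a late domain of 11500 kb. Its start bin was at -3.62 and its body mean was -3.78. The 18 bins of its body ran from -4.46 to -2.36, and both extremes were neighbors. The bin 650 kb downstream of the start bin stood at -2.36 between bins at -4.01 and -4.46, a departure of 1.87 log2 or 12.01 noise SD from their mean. By the same measure the largest departure was 2.11 noise SD in Pcdh15 and 2.32 in Pcdh7. These multiples use the noise SD of a single bin. A departure from a neighbor mean has a larger SD, so each multiple is an overestimate. The cause of the departing bin in Pcdh9 was not tested.

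Some delta2 genes encode receptors that recruit the actin-regulating WAVE complex. Of the delta2 genes 3 of 4 were late. Pcdh8, regulated by activity in neurons and known from somite formation (chromosome 14, 79766775 to 79771312), had an RT of 0.69, which is 1.61-fold more early than late RPM. It starts in the last bin of an early domain of 1400 kb, between bins at 1.06 and -0.16, and had 13 gene starts within 1 Mb. Within 500 kb RT ranged from -3.67 to 2.496, so its start lies inside a transition. Pcdh17 (chromosome 14, 84443563 to 84539002), known in synapses of the basal ganglia, had -2.91 at the start and a body mean of -3.41. It lies in the neighboring late domain of 7200 kb. Pcdh10 (chromosome 3, 45378398 to 45435623), known in axon growth of the forebrain, had -2.55 and a body mean of -2.995. Pcdh18 (chromosome 3, 49743296 to 49757325) had -3.70 and shares a late domain of 9200 kb with Pcdh10.

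Pcdh17 and Pcdh10 start on the flank of a local rise in RT that stayed late. The highest bin within 500 kb of Pcdh17 was at -1.27, 200 kb upstream of its start bin, and for Pcdh10 it was at -1.52, 150 kb upstream. From there RT fell to -3.20 and -3.27 in the bin after the start bin. Around Pcdh15 the highest bin within 500 kb was at -2.33, 400 kb upstream. For the other late genes it was at -2.98 (Pcdh18), -3.32 (Pcdh9), -3.45 (Pcdh7) and -3.504 (Pcdh20).

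Of the remaining genes, Pcdh15, a component of the tip links of hair cells (chromosome 10, 73099342 to 74649737), is the longest member at 1550 kb. Its start bin was at -3.18 and the 32 bins of its body ran from -4.17 to -3.18, with a mean of -3.70. It lies in a late domain of 3400 kb, so the gene takes up much of it. Pcdh20 (chromosome 14, 88464743 to 88471396), 6.65 kb long, had the lowest start of all members at -4.03, which is 16.4-fold more late than early RPM. It lies in the late domain of Pcdh9.

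**Figure D5:**
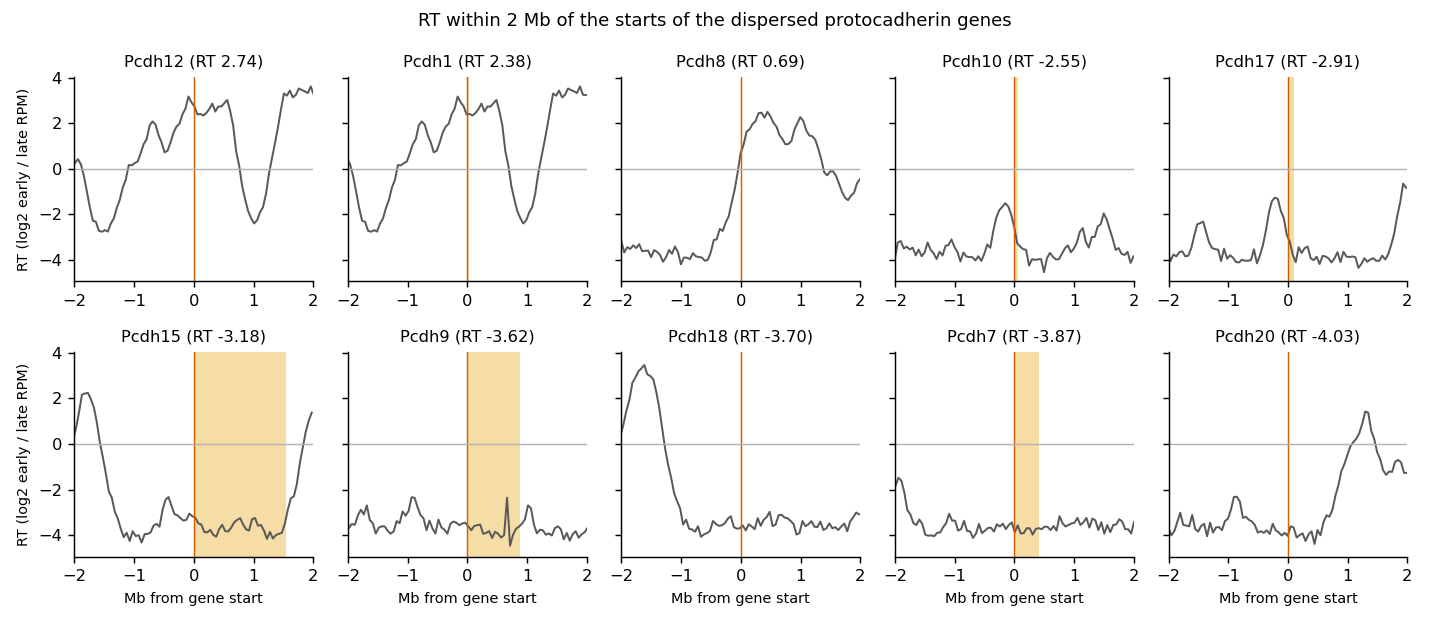
RT (log2 early over late RPM) of the 50 kb bins within 2 Mb of the start of each dispersed gene, with distance in Mb counted along the direction of transcription, the start as an orange line and the gene body shaded. Pcdh12 and Pcdh1 lie on early ground next to the valley of the clusters, Pcdh8 (0.69) lies on a transition, and the other 7 lie in broad late segments, with local rises to -1.52 and -1.27 just upstream of Pcdh10 and Pcdh17.

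The 7 late dispersed genes thus lay in 5 late domains of 3400 to 11500 kb, against 500 kb for the late domain of the clusters. Of all 983 late domains 11.5% are at least 3400 kb long, and these hold 45.2% of all late bins. Their start bins had a GC content of 35.3 to 40.05%. The groups by structure did not separate, since the medians were -3.62 (delta1, 3 genes), -2.73 (delta2, 4 genes) and -3.18 (others, 3 genes), with 1 early gene in each. The 3 early genes were 4.54 to 26.1 kb long and the 7 late genes 6.65 to 1550 kb. All 5 dispersed genes longer than the longest early gene were late, and the lengths of the short late genes Pcdh20 and Pcdh18 (14.03 kb) overlapped those of the early genes. Of all protein-coding genes of 100 kb or more 61.4% were early, and of those of 200 kb or more 46.4%. For 400 kb or more the share was 29.8%, and for 800 kb or more 17.0%. The late genes Pcdh10 (57.2 kb) and Pcdh17 (95.4 kb) are shorter than all of these limits.

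Genes of related function were compared from lists. The regulators of the clusters were early at 12 of 12 starts, with a median of 3.10, from 1.80 at Nipbl, the cohesin loader, to 3.69 at Dnmt3b, a DNA methyltransferase. Partners of the cytoplasmic domains (kinases and subunits of the WAVE complex) were early at 10 of 10, with a median of 1.78, from 0.03 at the kinase Ptk2b, within the noise SD of 0, to 3.46 at Ptk2, the focal adhesion kinase. Other large cadherins were early at 4 of 9, with a median of -0.17, from -3.65 at Fat4, a receptor of planar cell polarity, to 3.53 at Celsr3, a cadherin of axon guidance. The split of the large cadherins into early and late genes was thus wide, as among the protocadherins, and all 3 counts stand beside 74.1% of all genes.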

How the data were processed

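For the Repli-seq libraries of diploid F121-9 cells (2 per S fraction, early and late), 1 log2 value per 50 kb bin is deposited, early over late RPM. Its header names the cell line only, and it was taken to combine the libraries. The processing notes of the submitters name Bowtie2, SAMtools, bedtools and mm10. Whether and how the libraries were combined, and any smoothing, are not given in the sources used here, and depth per library is unknown. These values were used unchanged. Positions were read as bin starts, since on 19 of 19 autosomes the last value then lies in the bin of the last assembled base.

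Genes were taken from GENCODE vM21. A gene received the RT of the bin of its start and the mean over its body. Of 20807 protein-coding genes, 75 had no value at the start. Domains are runs of bins of one sign of RT. Noise was taken from flat segments (absolute slope over 5 bins at most 2.5 log2 per Mb for 10 bins or more, 6935 deviations). Base composition was counted in the GRCm38.p6 reference, and promoters came from RefSeq of that build. With 1 value per bin, no test was made and results are descriptions.

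The members and lists were chosen with earlier results of these data known. Named are every dispersed gene, the first, last, highest and lowest gene of each cluster with the genes of the same bins, the C-type isoforms, the nearest and enclosed genes, and the highest and lowest gene of each list. Genes of the same bins, enclosed genes and gene models named in the closing section were added after their values were seen, as were the local rises and the single bin in Pcdh9. Steps were tested on simulated data. Alternatives covered the assignment of genes to bins, the reading of positions, smoothing, the cut between early and late, and the genes included. Python 3.11.15, numpy 2.4.6, scipy 1.17.1, pandas 2.3.3 and matplotlib 3.10.9 were used.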

Additional observations from a re-analysis of the deposited data

How the results depend on the processing

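Of 93 alternative values over 11 results, 69 stayed the same, 19 moved and 5 reversed in sign. A count was called the same within a factor of 1.5 of the main value. By this rule the early count of clustered genes (33 of 57) stayed the same. It was 24 with body means or a cut at RT 1, and 41 with a cut at RT -1. The alpha median (0.46) became -0.21 with positions read as bin ends, -1.05 with gene body means and -0.21 with each bin counted once. The clustered median (0.46) became -0.76 with body means and -0.21 with each bin counted once, and moved to 0.23 with interpolation between bin centers and 0.14 with positions read as bin ends. The beta median (-1.34) moved to -0.76 with positions read as bin ends and -1.60 with each bin counted once, and the gamma median (2.87) to 2.61 with the mean of 5 bins. The dispersed median (-3.04) moved to -3.25 with positions read as bin ends and -3.53 with body means. The difference of 3.50 moved to 3.34 with interpolation, 2.77 with body means, 2.83 with bins counted once and 3.85 without the dispersed genes of chromosome 18. In percentiles of all gene starts it was 23.0. The number of early genes varied most in the alpha cluster (0 of 14 with body means, 3 with a cut at RT 1, 12 with a cut at RT -1) and the beta cluster (0 to 8 of 22 over the alternatives), and stayed at 21 of 21 in the gamma cluster under every alternative. No paired analysis was possible because the deposited column gives 1 value per bin for the cell line. For the same reason no replicate could be left out, and the depth behind a bin is unknown.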

Other observations

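Outside the autosomes, the X-linked genes had late starts in these cells. Pcdh11x, a delta1 protocadherin, had an RT of -3.87 at its start and a body mean of -3.58 over 620 kb. Pcdh19, the delta2 gene tied to an X-linked epilepsy, had -2.38 at its start and a body mean of -2.47. Pcdhgb8, annotated as a polymorphic pseudogene and so not counted among the members, lies in the gamma cluster and was early (2.87, body mean 2.80). The gene models Gm42416, Gm37013 and Gm37388 begin in the alpha cluster and end in the gamma cluster. Their starts were at 0.46, and their bodies, which cross the whole valley, averaged between -0.14 and -0.11.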
